A study of Mus musculus with 10 samples.

Results

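Sst, Gast and Iapp, the genes of the hormones somatostatin, gastrin and amylin, were followed together with Hhex and Pdx1, which encode transcription factors of the cells that make such hormones. They are 5 of the 20579 genes in the deposited count table, and all 5 were found there by gene symbol. Sst, Gast and Iapp were picked because they were nearly absent from p57WT in these same counts, so their difference between the genotypes is given as a description, with no test. Hhex and Pdx1 were added for their known role and not for their values. All 5 genes passed the filter on low counts. Hhex, like the 3 hormone genes, passed it through its p57KO libraries alone, so the genotype difference of Hhex is also given with no test.

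The study sorted GFP-positive cells, in which the Hopx promoter drives GFP, from mouse intestine at embryonic day 18.5, and sequenced their RNA in bulk. There were 5 libraries from p57KO embryos and 5 from p57WT embryos, all on a C57BL6/J / 129S4 background, all carrying the reporter and with no treatment named. The labels name neither the knockout allele nor the sex or any pooling of embryos, and speak of 5 intestines per genotype, so each library was taken as 1 animal. Each library also carries a label number of unstated meaning, which is 607 in p57KO 1, p57KO 2 and p57WT 1, 608 in p57KO 3 to 5, and 740 in p57WT 2 to 5, so that number and genotype are nearly confounded. Cdkn1c, the gene of p57, was at 0.153 to 2.06 CPM in p57KO and 151 to 458 CPM in p57WT, as the genotype labels say. CPM here are counts on a common scale of library size, set by the trimmed mean of M values (TMM). Total counts were 10684179 to 26809231 in p57KO and 8037887 to 25527896 in p57WT libraries.

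Somatostatin is the inhibitory hormone of D cells in gut and pancreatic islets, and it restrains the release of most other gut hormones. Gastrin is made by G cells, mainly of the gastric antrum, and drives acid secretion. Amylin is best known as the peptide that pancreatic beta cells release with insulin, and some endocrine cells of stomach and gut also make it. In mice, Hhex, a homeodomain repressor, is needed for the somatostatin cells of the pancreatic islet, and Pdx1, also a homeodomain factor, marks the antrum, duodenum and pancreas and is needed for antral gastrin cells. All of these peptides are made as prohormones, cut by convertases and stored in granules with chromogranins.

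The starts of the 3 hormone genes are shown because these genes were close to silent in p57WT and read in every p57KO library. Each sequence is the 250 bases before the RefSeq start of the gene on build GRCm38.p6, on the strand of the gene. Capitals mark TGACGTCA, the cyclic AMP response element for which the somatostatin promoter is a textbook case, and TAAT in either direction, the core letters that homeodomain proteins such as Pdx1 and Hhex can bind. The Sst window is chr16:23890845-23891094 on the minus strand, the Gast window chr11:100334157-100334406 on the plus strand and the Iapp window chr6:142298175-142298424 on the plus strand.
Sst: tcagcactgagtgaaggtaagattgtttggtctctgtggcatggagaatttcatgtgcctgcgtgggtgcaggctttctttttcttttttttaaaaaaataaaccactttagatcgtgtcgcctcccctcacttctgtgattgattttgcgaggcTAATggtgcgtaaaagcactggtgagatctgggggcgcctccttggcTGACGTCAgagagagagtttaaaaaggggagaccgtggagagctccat
Gast: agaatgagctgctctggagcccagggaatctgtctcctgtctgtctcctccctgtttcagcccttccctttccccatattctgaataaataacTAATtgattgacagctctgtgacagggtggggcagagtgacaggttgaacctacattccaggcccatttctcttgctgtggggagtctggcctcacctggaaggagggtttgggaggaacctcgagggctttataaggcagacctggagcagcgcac
Iapp: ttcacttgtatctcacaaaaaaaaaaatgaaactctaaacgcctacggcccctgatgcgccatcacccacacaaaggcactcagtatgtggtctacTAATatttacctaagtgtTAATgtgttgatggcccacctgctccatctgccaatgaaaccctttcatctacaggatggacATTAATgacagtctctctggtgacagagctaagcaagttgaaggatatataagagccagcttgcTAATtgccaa
The motifs were chosen with these sequences in view and searched on both strands. Of the 5 genes, Sst alone held TGACGTCA in its window, starting 48 bases before the RefSeq start. Of all 32851 RefSeq mouse windows of this length, 1.55% held it. The GENCODE span of Sst reaches position 23890958 on chr16, beyond the RefSeq start, so this window lies partly inside that span. TAAT occurred 1 time in the Sst window, 1 time in that of Gast and 5 times in that of Iapp, where a pair of the matches overlap in ATTAAT. At least 1 match was present in 54.9% of all windows, and at least 5 in 5.54%. No match of either motif lay in the Hhex and Pdx1 windows. The E-box CANNTG, which basic helix-loop-helix factors can bind, is not marked, and it occurred 1 time before Sst, 1 time before Gast, 3 times before Iapp, 3 times before Pdx1 and 0 times before Hhex, with 66.2% of all windows holding it. A match describes letters in these windows and not a bound site.

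Somatostatin RNA was abundant in every p57KO library and close to absent from every p57WT library. Sst (ENSMUSG00000004366; GRCm38 chr16:23889573-23890958, minus strand) was read 4202, 18366, 17604, 12843 and 7651 times in p57KO 1 to 5, against 3, 2, 2, 3 and 1 times in p57WT 1 to 5. These counts correspond to 361, 778, 616, 493 and 666 CPM in p57KO 1 to 5, against 0.341, 0.0790, 0.242, 0.392 and 0.119 CPM in p57WT 1 to 5. The p57KO libraries lay within a narrow band, with p57KO 1 lowest, and each p57WT library was at or under the floor of 3 counts used here for a gene without reads. The mean was 583 ± 161 CPM in p57KO and 0.235 ± 0.136 CPM in p57WT (SD, n = 5 each). The fitted log2 fold change of p57KO over p57WT was 11.42 (SE 0.49), the largest of the 16710 genes that passed the filter. The ratio of pooled counts was 3179, with an exact 95% interval of 1777 to 6369 that covers counting error only. In bulk RNA such as this, more cells of a type and more RNA per cell cannot be told apart.

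Gastrin RNA was lower in level but showed the same split between the genotypes. Gast (ENSMUSG00000017165; GRCm38 chr11:100334407-100336996, plus strand) had 200, 486, 155, 228 and 52 counts in p57KO 1 to 5, against 1, 0, 1, 1 and 0 counts in p57WT 1 to 5. Its levels were 17.2, 20.6, 5.43, 8.74 and 4.53 CPM in p57KO 1 to 5, and at most 0.131 CPM in p57WT. The libraries p57KO 1 and p57KO 2, both numbered 607, were highest. Means were 11.3 ± 7.21 CPM in p57KO and 0.0731 ± 0.0670 CPM in p57WT (SD, n = 5 each), with a log2 fold change of 7.45 (SE 0.81). The pooled ratio was 215, and its counting interval of 73.5 to 1046 is wide because p57WT held 3 counts in all.

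Amylin RNA was also higher in every p57KO library, with a wide spread among them. Iapp (ENSMUSG00000041681; GRCm38 chr6:142298423-142303961, plus strand) had 97, 2113, 2803, 1951 and 516 counts in p57KO 1 to 5, against 8, 7, 18, 2 and 0 counts in p57WT 1 to 5. Its levels were 8.34, 89.5, 98.2, 74.8 and 44.9 CPM in p57KO 1 to 5, against 0.911, 0.277, 2.18, 0.262 and 0 CPM in p57WT 1 to 5. The groups did not overlap, although p57KO 1 stood well under the other p57KO libraries and p57WT 3 was the highest of its group. Means were 63.1 ± 36.7 CPM in p57KO and 0.725 ± 0.879 CPM in p57WT (SD, n = 5 each), with a log2 fold change of 6.52 (SE 0.85) and a pooled ratio of 123 (88.5 to 177). Iapp lies inside the span of Slco1a5, a transporter gene on the other strand that was not analysed here. The strand setting of the counting was not given and exons were not compared. Reads of the 2 genes may therefore not be told apart where exons overlap.

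Hhex RNA was low in p57KO and close to absent from p57WT, whereas Pdx1 was present in both genotypes. Hhex (ENSMUSG00000024986; GRCm38 chr19:37434810-37440731, plus strand) had 61, 284, 222, 136 and 42 counts in p57KO 1 to 5, against 3, 2, 3, 1 and 2 counts in p57WT 1 to 5. Its levels were 5.25, 12.03, 7.77, 5.22 and 3.66 CPM in p57KO 1 to 5, against 0.341, 0.0790, 0.363, 0.131 and 0.237 CPM in p57WT 1 to 5. Every p57KO library lay above every p57WT library, and each p57WT library was at or under 3 counts. Means were 6.78 ± 3.28 CPM in p57KO and 0.230 ± 0.125 CPM in p57WT (SD, n = 5 each). The fitted log2 fold change was 4.95 (SE 0.57), and the ratio of pooled counts was 39.0, with a counting interval of 21.7 to 78.6. Hhex is also made by endothelial cells and hepatocytes, whose markers are given further on.

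Pdx1 (ENSMUSG00000029644; GRCm38 chr5:147269959-147275848, plus strand) had 482, 641, 55, 114 and 78 counts in p57KO 1 to 5, against 88, 68, 56, 49 and 29 counts in p57WT 1 to 5. Its levels were 41.5, 27.1, 1.93, 4.37 and 6.79 CPM in p57KO 1 to 5, against 10.02, 2.69, 6.78, 6.41 and 3.44 CPM in p57WT 1 to 5. The genotypes overlapped: p57KO 1 and p57KO 2 stood above all p57WT libraries, and p57KO 3 was the lowest of all 10. Means were 16.3 ± 17.2 CPM in p57KO and 5.87 ± 2.93 CPM in p57WT (SD, n = 5 each). Its log2 fold change of 1.48 (SE 0.71) had limits of -0.06 and 3.02 (edgeR adjusted p = 0.118), and an exact two-sided permutation test of log2 CPM gave p = 0.381 (n = 5 each). Without p57KO 3 it passed, at 1.78 (edgeR adjusted p = 0.0437). With both 607 libraries of p57KO left out it was -0.39 (edgeR adjusted p = 0.564), and when libraries were scaled to epithelial markers -0.11 (edgeR adjusted p = 0.875). Pdx1 overlaps Plut, an antisense transcript from its own locus that followed the same pattern, at 18.3, 18.0, 1.09, 3.57 and 3.74 CPM in p57KO 1 to 5 and 2.02 to 9.22 CPM in p57WT. The span of Plut, chr5:147228596-147271521, covers only the first part of Pdx1. Within that shared part, reads of Pdx1 and Plut may not be told apart here. Of all genes tested, 36.5% passed the genotype comparison, made up of 19.3% that rose and 17.2% that fell, while Pdx1 did not. For 24.2% of genes the ranges of p57KO and p57WT were separate, 11.5% being higher in p57KO, beside 4 of these 5 genes. Nothing is read from that count of 4, since Sst, Gast and Iapp were chosen on this contrast and Hhex passed the filter through p57KO alone. In the authors' deposited table the log2 fold change of Pdx1 was 1.46, with an adjusted p of 0.0712, and that of Hhex was 5.06.

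**Figure D1:**
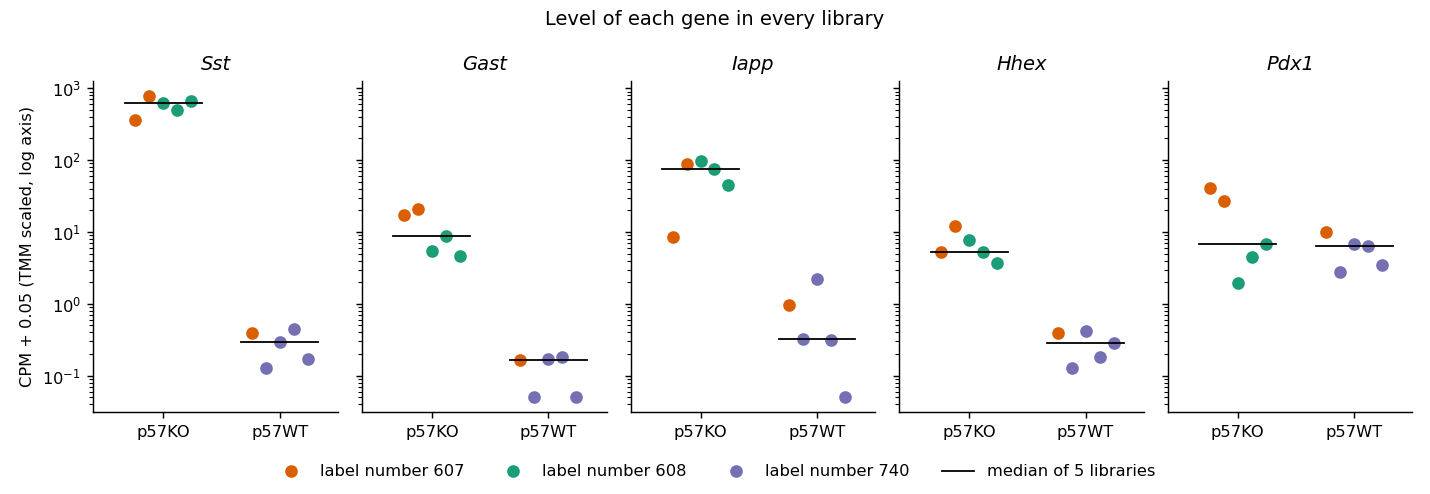
The level of each of the 5 genes in every library, as TMM-scaled CPM plus 0.05 on a log axis, with a line at the median of each genotype and colours for the label number. Sst, Gast, Iapp and Hhex are higher in all 5 p57KO libraries than in any p57WT library, whereas for Pdx1 the 2 p57KO libraries of number 607 stand above the rest, p57KO 4 and 5 lie among the p57WT libraries and p57KO 3 is the lowest of all.

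Per length of transcript, the hormones differed widely in level. In p57KO the mean was 808 CPM per kb of exon for Sst, 64.8 for Iapp and 24.6 for Gast, beside 7.57 for Pdx1 and 1.34 for Hhex. In p57WT, Pdx1 came first at 2.72 CPM per kb, ahead of Iapp at 0.745, Sst at 0.326, Gast at 0.159 and Hhex at 0.0455, and the ranges of the last 3 in counts lie at or under the floor, so their order there carries no meaning. Among 13 hormone genes, Sst made up 6.67%, 4.77%, 4.14%, 4.92% and 7.48% of the summed length-scaled level in p57KO 1 to 5, against 0.0226% to 0.207% in p57WT. The Gast share was 0.0571% to 0.497% in p57KO and 0% to 0.0541% in p57WT, where it rests on at most 1 count per library, so a gap between the genotypes is not resolved at this depth. The Iapp share overlapped between the genotypes, at 0.114% to 0.553% in p57KO and 0% to 0.536% in p57WT. The highest Iapp share in p57WT was that of p57WT 2, in which the other hormone genes summed to 52.3 CPM.

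The 5 genes did not vary together within p57KO. The label number was not used to choose them, so the 607 libraries p57KO 1 and p57KO 2 were compared with the 608 libraries p57KO 3 to 5 in edgeR. Pdx1 was higher in 607, averaging 34.3 CPM there against 4.36 CPM in 608, a log2 difference of 2.99 (SE 0.56, limits 1.77 to 4.21; edgeR adjusted p = 0.0117). It did not pass without p57KO 1, at 2.66 (edgeR adjusted p = 0.0600). Pdx1 was the 1 gene of 5 that passed, where 6.68% of all genes did, with 3.01% higher and 3.67% lower in 607. Plut passed as well, at 2.71 (edgeR adjusted p = 0.0349).

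Gast averaged 18.9 CPM in 607 and 6.23 CPM in 608 without passing in edgeR (log2 difference 1.60, SE 0.57, limits 0.35 to 2.84, adjusted p = 0.111), whereas DESeq2 and limma-voom gave adjusted p-values of 0.0386 and 0.0392. Sst averaged 570 CPM in 607 and 592 CPM in 608, a log2 difference of -0.05 (edgeR adjusted p = 0.956). Iapp averaged 48.9 CPM in 607 and 72.6 CPM in 608, at -0.57 (edgeR adjusted p = 0.752), and p57KO 1 and p57KO 2 lay on opposite sides of the 608 mean. Hhex averaged 8.64 CPM in 607 and 5.55 CPM in 608, at 0.64 (edgeR adjusted p = 0.552). Amylin and gastrin were thus ordered differently over the p57KO libraries: for each 1000 Sst counts there were 23.1, 115, 159, 152 and 67.4 Iapp counts in p57KO 1 to 5, and 47.6, 26.5, 8.80, 17.8 and 6.80 Gast counts. Within number 607, which holds both genotypes, p57KO exceeded the lone p57WT library by 10.67 on the log2 scale for Sst, 7.28 for Gast, 5.74 for Iapp, 4.63 for Hhex and 1.77 for Pdx1 (edgeR adjusted p = 0.228). That lone library is assumed to vary like the other groups.

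The label number also went with genes of the stomach lining. Of 15 gastric epithelial markers listed, 7 were tested. Of these 7, 4 were higher in the 607 than in the 608 libraries of p57KO, where 3.01% of all genes were. Their median log2 difference was 7.13, beside 0.03 over all genes. The 7 markers summed to 590, 227, 9.32, 9.86 and 11.8 CPM in p57KO 1 to 5, against 346, 6.84, 787, 485 and 308 CPM in p57WT 1 to 5. Tff2, a trefoil peptide of gastric mucus, was at 260 and 82.1 CPM in p57KO 1 and p57KO 2 and at most 0.840 CPM in p57KO 3 to 5. Pdx1 and Gast were high in the same p57KO libraries as these markers. In p57WT the markers were abundant in 4 of 5 libraries, while Gast was at 0 or 1 count in each of these 4 and Pdx1 was at 3.44 to 10.02 CPM. Between the genotypes 1 of the 7 markers rose and none fell, where 19.3% of all genes rose and 17.2% fell. Their median log2 fold change was -0.63. The label number went with smooth muscle genes too. All 10 smooth muscle markers were lower in the 607 than in the 608 libraries of p57KO, where 3.67% of all genes were. Their median log2 difference was -2.04. Of 18 general epithelial markers none passed there, with a median of 0.52. The part of these gastric, muscle and epithelial genes in the Gast and Pdx1 values was not tested.

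Insulin genes did not follow Iapp throughout. Ins1 was at 0.774, 16.9, 41.8, 24.7 and 0 CPM in p57KO 1 to 5 and at 0 in every p57WT library. Ins2 was at 0.0860, 216, 188, 45.0 and 0.0871 CPM in p57KO 1 to 5 and at 0 to 0.911 CPM in p57WT. In p57KO 1 and p57KO 5, Ins2 was at 1 count each and Ins1 at 9 and 0 counts. Iapp was there at 8.34 and 44.9 CPM, beside a p57WT maximum of 2.18 CPM. Leaving out p57KO 2 to 4, which held most insulin counts, was an alternative chosen after these values were seen. It gave log2 fold changes of 5.23 for Iapp, 11.22 for Sst, 7.24 for Gast and 4.24 for Hhex. Their direction is fixed by the choice of genes and the filter. Of 10 beta cell markers listed 4 were tested and all 4 rose, where 19.3% of all genes did with every library kept. Ucn3, a peptide of islet endocrine cells, was among them at 4.39. The 7 in the table summed to 32.3 to 290 CPM in p57KO and 4.07 to 15.1 CPM in p57WT. Of 16 acinar markers listed 6 were tested, and 3 of these rose, beside 19.3% of all genes. The 6 summed to 198 to 624 CPM in p57KO and 24.6 to 48.9 CPM in p57WT. Clps alone was at 177 to 452 CPM in p57KO and 10.8 to 31.5 CPM in p57WT, while Rbpjl was at -1.95 (edgeR adjusted p = 0.0599). The other acinar genes listed, among them Prss1, Cpa1, Cpb1, Amy2a5 and Ptf1a, were not analysed here. The part of these cells in the Iapp, Sst and Hhex values was not tested in any library.

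**Figure D2:**
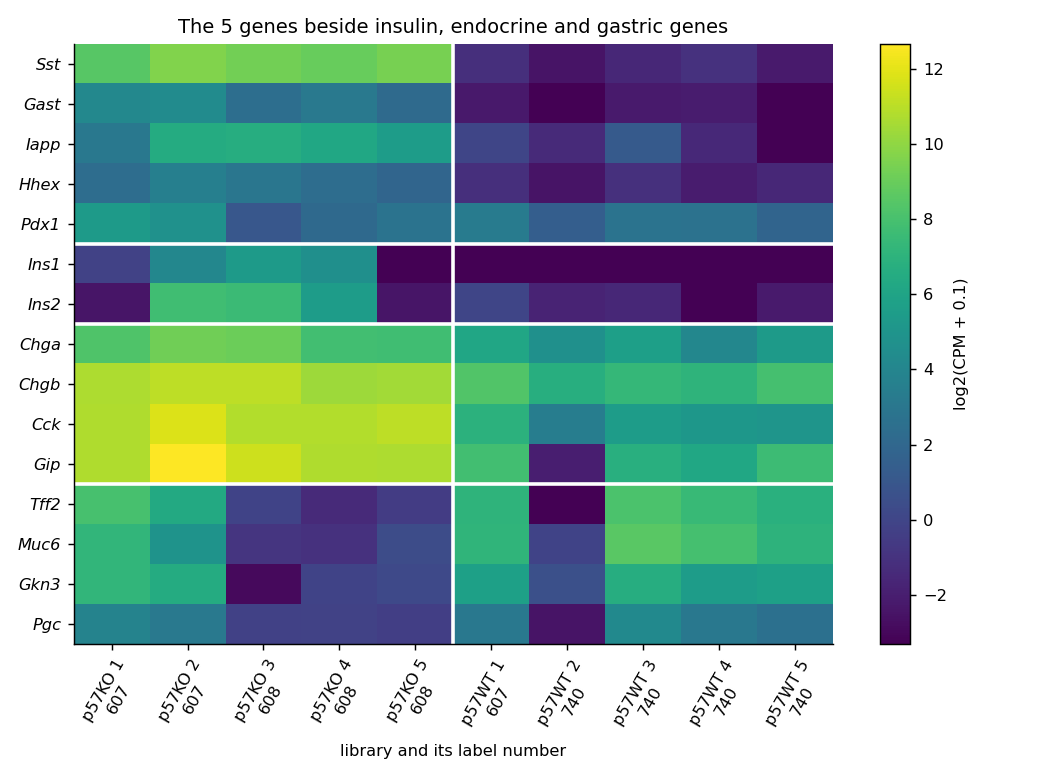
Levels of the 5 genes, the insulin genes, endocrine genes and gastric markers in every library, as log2 of TMM-scaled CPM plus 0.1, with the genotype split by a vertical line. Iapp stays high in p57KO 5, where both insulin genes are at or near 0, and the gastric markers are high in p57KO 1 and 2 and in all p57WT libraries except p57WT 2.

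Markers of other cells moved with genotype too. All 10 smooth muscle markers fell in p57KO, where 17.2% of all genes did. They summed to 5172 to 36516 CPM in p57KO and 49140 to 109920 CPM in p57WT. Of 18 general epithelial markers, 15 rose, where 19.3% of all genes did. Their sums were 9638 to 19344 CPM in p57KO and 3379 to 8008 CPM in p57WT. The smooth muscle sum was above the epithelial sum in all p57WT libraries and in p57KO 3 to 5, and below it in p57KO 1 and p57KO 2. How far the mix of cells sets the values of the 5 genes was not tested. Ribosomal RNA repeats took 0.0592% to 0.435% of counts in p57KO 1 to 4 and 9.47% in p57KO 5, against 0.0301% in p57WT 2 and 14.9% to 17.0% in the other p57WT libraries, and thus nearly followed the genotype. With the low or high class of this share as a term, the log2 fold changes were 11.73 for Sst, 7.04 for Gast, 6.66 for Iapp, 4.88 for Hhex and 1.41 for Pdx1 (edgeR adjusted p = 0.466). Hopx itself was at 127 to 199 CPM in p57KO and 60.4 to 78.1 CPM in p57WT, and the crypt stem cell gene Olfm4 at 316 to 591 CPM in p57KO and 298 to 840 CPM in p57WT. Scaled to the epithelial markers, the median of all genes shifted to -1.39 on the log2 scale, 2.18% of genes rose and 65.2% fell, Sst was at 10.09, Gast at 5.97, Iapp at 5.16, Hhex at 3.48 and Pdx1 at -0.11. Enteric neurons, some of which make somatostatin, had 4 of 7 tested markers fall and none rise. Those calls were made without that scaling, where 17.2% of all genes fell and 19.3% rose. The sums were 19.2 to 38.0 CPM in p57KO and 24.6 to 98.0 CPM in p57WT.

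For Hhex, neither of the 2 endothelial markers tested passed, where 36.5% of all genes did. The 6 in the table summed to 2.49 to 23.6 CPM in p57KO and 1.44 to 15.2 CPM in p57WT. The endothelial sum was highest in p57KO 5, where Hhex was lowest of p57KO. All 6 liver markers tested rose, and so did all 5 leukocyte markers, where 19.3% of all genes rose. Sums over the 7 liver markers in the table were 184 to 408 CPM in p57KO and 20.6 to 104 CPM in p57WT. Leukocyte sums were 104 to 2050 CPM in p57KO and 13.9 to 82.9 CPM in p57WT. The liver list includes Ttr and Serpina1a, which endocrine or intestinal cells also make. Alb and Ahsg, also listed, were not analysed here. The part of these cells in the Hhex values was not tested.

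Most genes for the storage granule rose. Of 6 granule proteins, 4 rose and the other 2 did not pass, where 19.3% of all genes rose. Their median log2 fold change was 3.19, beside 0.08 over all genes. Scaled to epithelial markers 4 also rose, where 2.18% of all genes did. Chgb, the chromogranin B of endocrine granules, averaged 1735 ± 412 CPM in p57KO and 194 ± 88.7 CPM in p57WT (SD, n = 5 each; log2 fold change 3.16, edgeR adjusted p = 0.000213). Scg2, which encodes secretogranin II, rose by 5.14, Resp18 by 4.16 and Chga by 3.21. Vgf was at 1.47 (edgeR adjusted p = 0.0505), and passed without p57KO 1 (1.58) and without p57WT 1 (2.15). Scg3 was at 1.85 (edgeR adjusted p = 0.0535), and passed without p57KO 1 (2.01), p57WT 2 (1.54) or p57WT 3 (2.67).

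Of 9 genes for prohormone maturation, 4 rose, 1 fell and 4 did not pass, where 19.3% of all genes rose and 17.2% fell. Their median was 0.62. Scaled to epithelial markers, 1 rose and 5 fell, where falls were the general state, with 2.18% of all genes rising and 65.2% falling. Pcsk1, the convertase that cuts many gut prohormones, rose most, at 40.2 to 165 CPM in p57KO and 3.08 to 7.63 CPM in p57WT (log2 fold change 3.92, edgeR adjusted p = 0.000178). Pcsk2, the second convertase of endocrine granules, rose by 2.64 (edgeR adjusted p = 0.0309), but did not pass without p57KO 1 (2.23), p57KO 2 (2.31), p57WT 2 (2.28), p57WT 3 (2.32) or p57WT 5 (2.56). Its chaperone gene Scg5 rose by 2.05 and Pcsk1n, a convertase inhibitor, by 1.94. Pam, which amidates peptides such as gastrin and amylin at their end, fell in p57KO, at 36.4 to 93.0 CPM against 76.4 to 194 CPM in p57WT (log2 fold change -1.23, edgeR adjusted p = 0.00805). Tpst1, a tyrosine sulfation enzyme, was at -0.88 (edgeR adjusted p = 0.0842).

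Somatostatin receptor genes were among those higher in p57KO. Of 5 genes tested in the list of receptors and their partners, 3 rose and 2 did not pass, where 19.3% of all genes rose. Their median was 1.98. Of the 3, Sstr1 and Sstr3, like Hhex, passed the filter through their p57KO libraries alone, so their values are given with no test. Scaled to epithelial markers, 1 rose and 1 fell, where 2.18% of all genes rose and 65.2% fell. Sstr1 was at 3.53 to 14.3 CPM in p57KO and 0.198 to 1.94 CPM in p57WT (log2 fold change 3.21). Sstr3 was at 1.44 to 2.67 CPM in p57KO and 0 to 0.797 CPM in p57WT (2.51). Sstr2, the receptor through which somatostatin restrains many gut endocrine cells, was at 0.602 to 5.74 CPM in p57KO and 0.0790 to 1.31 CPM in p57WT, with overlap (1.98, edgeR adjusted p = 0.0417). The Sstr2 call was lost without any 1 of 8 libraries, all but p57KO 1 and p57WT 4, at 1.55 to 2.25. Sstr5 was kept out of the test by the filter on low counts, with 749 pooled counts in p57KO and 32 in p57WT and no overlap. Without the filter its log2 fold change was 3.56 (edgeR adjusted p = 0.00167). Ramp1 and Ramp3, which turn the calcitonin receptor into amylin receptors, were at -0.02 (edgeR adjusted p = 0.952) and 1.17 (edgeR adjusted p = 0.353). Sstr4, the gastrin receptor gene Cckbr, Calcr and Ramp2 were not analysed here.

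Most other gut hormone genes and endocrine transcription factors rose. Of 10 other hormone genes 9 rose, where 19.3% of all genes did, and 8 of 10 under epithelial scaling, where 2.18% did. Their median log2 fold change was 4.02, and Insl5, a hormone of the hindgut, did not pass at 1.71 (edgeR adjusted p = 0.209). Cck rose by 5.51, Sct by 4.78, Nts by 4.69, Gip by 4.55, Pyy by 3.33 and Tac1 by 3.21. They summed to 5811 to 16875 CPM in p57KO and 52.3 to 827 CPM in p57WT. Of 20 other endocrine transcription factors 13 rose, none fell and 7 did not pass, where 19.3% of all genes rose and 17.2% fell. Their median was 1.73. Under epithelial scaling 3 of these factors rose and 2 fell, where 2.18% of all genes rose and 65.2% fell. Lmx1a rose by 3.17, Pax6 by 2.82, Neurod1 by 2.69, Isl1 by 2.603, Pax4 by 2.52 and Rfx6 by 2.05, while Neurog3, which starts the endocrine program, was at 1.11 (edgeR adjusted p = 0.112). Within number 607, where 1.1% of all genes rose, the counts were 2 of the other hormones, 1 factor, 1 granule gene, 2 maturation genes and 0 receptors. Without p57KO 2 to 4, where 4.68% of all genes rose, they were 3 hormones, 7 factors, 2 maturation genes, 1 receptor and 4 granule genes.

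**Figure D3:**
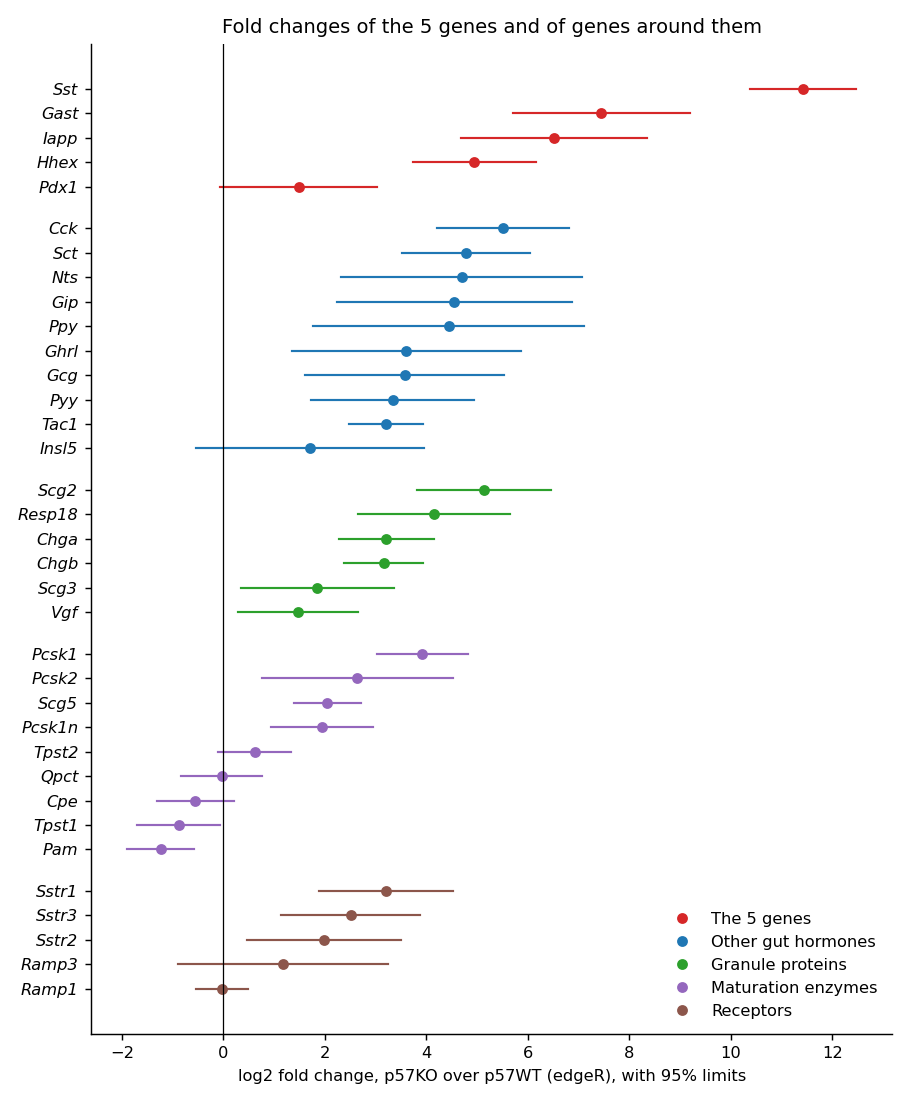
Fitted log2 fold changes of p57KO over p57WT with 95% limits for the 5 genes and for the lists of other gut hormones, granule proteins, maturation enzymes and receptors. Sst at 11.42, Gast at 7.45 and Iapp at 6.52 lie beyond Cck at 5.51, the highest of the other hormones, but were chosen for this difference.

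Because many endocrine genes rose, the 5 genes were also set against Chgb, a denominator chosen after its values were seen. For each 1000 Chgb counts there were 217, 360, 285, 378 and 481 Sst counts in p57KO 1 to 5, against 1.06, 0.747, 1.48, 2.92 and 0.485 in p57WT 1 to 5. Sst was chosen because its p57WT counts were so low, so this gap follows from that choice and nothing is read from it. For each 1000 Chgb counts Gast had 2.51 to 10.3 counts in p57KO and 0 to 0.973 in p57WT. Hhex had 2.64 to 5.56 in p57KO and 0.747 to 2.22 in p57WT. For both genes the p57WT values are at or under the floor, and 3 counts in p57WT 4 would give 2.92, above Gast in p57KO 3 and Hhex in p57KO 5, so a gap between the genotypes is not resolved at this depth. Iapp overlapped, with 5.02, 41.4, 45.4, 57.4 and 32.4 in p57KO 1 to 5 against 2.82, 2.61, 13.3, 1.95 and 0 in p57WT 1 to 5, since p57KO 1 was below p57WT 3. Pdx1 went the other way, with 24.9, 12.6, 0.891, 3.36 and 4.90 in p57KO 1 to 5 against 31.0, 25.4, 41.5, 47.7 and 14.1 in p57WT 1 to 5, where p57KO 1 overlapped the p57WT range.

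**Figure D4:**
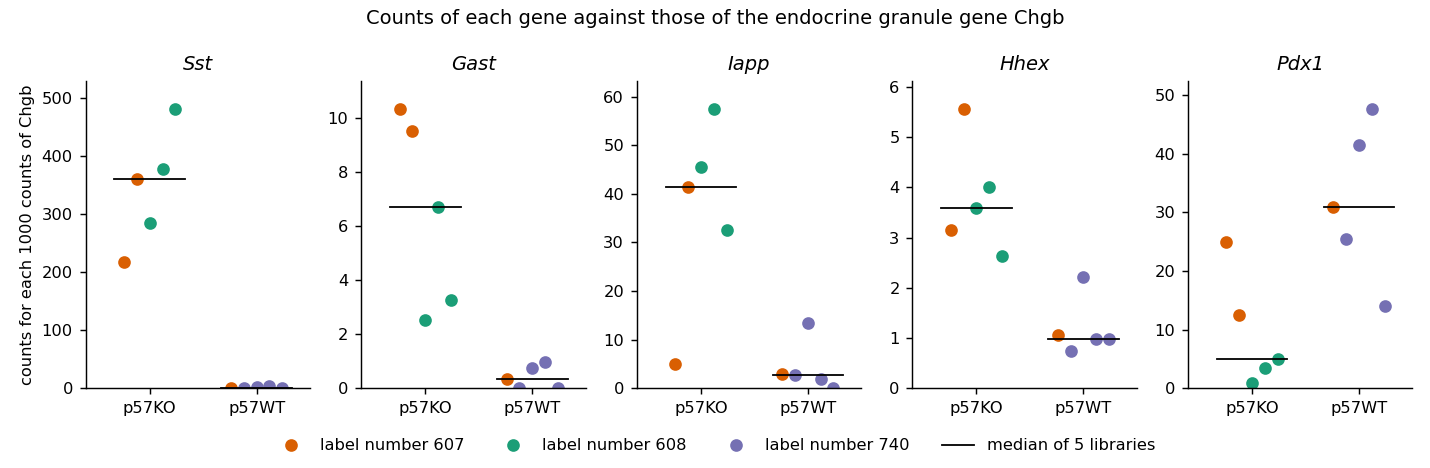
Counts of each of the 5 genes for each 1000 counts of Chgb in every library, on linear axes that start at 0, with a line at the median of each genotype. Sst is far higher in p57KO, which follows from its choice on these counts. The p57WT values of Gast and Hhex rest on at most 3 counts per library. Iapp overlaps through p57KO 1 at 5.02 and p57WT 3 at 13.3, and for Pdx1 most p57WT libraries lie above the p57KO libraries.

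The genes most like each of the 5 were taken by Pearson's r of log2 CPM over the 10 libraries, among 16458 genes whose mean level reached 1 CPM. These values describe libraries that share the genotype split and carry no test. Sst was closest to Mmgt2 (0.99), Ang4 (0.98), an antimicrobial peptide of Paneth cells, 2410124H12Rik, Prdm1, which in mice holds back the adult intestinal program before weaning, and Rnf128. Gast was closest to 0610005C13Rik (0.99), Slc51b, which exports bile acids, Rnase1, Nr1h4, the bile acid receptor, and Hsd17b13. Iapp was closest to Stap2 (0.99), Slc6a19, an amino acid transporter of enterocytes, Gm11992, Cdhr5, a brush border cadherin, and Casp6. Hhex was closest to Cltrn (0.99), Hcls1, Rnase4, Upp1 and Chgb. Pdx1 was closest to Baiap2l2 (0.98), Pex11a, Mt2, Sfn and Dnmt3bos, with r down to 0.95 for the fifth. None of the 5 genes was among the closest 5 of another. Over the same libraries r was 0.97 between Sst and Hhex and 0.32 between Sst and Pdx1.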

How the data were processed

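RNA of sorted Hopx-GFP cells was sequenced for 5 p57KO and 5 p57WT libraries. Per the file headers, the authors deposited raw counts per gene, a normalized signal (the count over a size factor), and their comparison of genotypes as log2 fold changes, standard errors, Wald scores and p-values. Tools listed in the submitters' processing notes are DESeq2 1.22.2, HTSeq 1.0, Cufflinks 2.2.1, STAR 2.6.1d, Trim Galore and FastQC, and the build is GRCm38 (mm10). What each tool did, the annotation and the strand setting are not given in the sources used here. Genes with a mean normalized count under 3.00, the smallest in the table, are not analysed here.

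The counts were tested with edgeR 4.0.16 (quasi-likelihood, TMM scaling, its expression filter) in R 4.3.3, with genotype as the only term. Benjamini-Hochberg adjustment ran over all 16710 genes kept, and a gene passed at an adjusted p below 0.05. Sstr1, Sstr3 and Ucn3 are among the listed genes kept through p57KO alone, and counts of genes that rose include such genes. Label numbers 607 and 608 were compared within p57KO by a contrast, with each pair of genotype and number as a group. Every adjusted p-value is from edgeR unless DESeq2 1.42.0, limma-voom (limma 3.58.1) or the authors' table is named. The edgeR fits of the genotype and label number comparisons were also run on simulated counts. The other self-written steps were not. Intervals of pooled ratios and the floor of 3 counts, which was 0.112 to 0.373 CPM, cover counting error only. Limits of log2 fold changes are 95% limits from the edgeR fit and also cover the spread among libraries.

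The 5 genes and the 14 gene lists were chosen with earlier results of these data known. Named beside them are Cdkn1c, up to 6 genes of each endocrine list with the smallest p, all receptors, and the 5 genes most like each of the 5. Others (Insl5, Neurog3, Ins1, Ins2, Ucn3, Tff2, Hopx, Olfm4, Plut) were named after their values were seen. Coordinates are from GENCODE M21, which 20558 of the 20579 identifiers matched, and sequences from RefSeq (GRCm38.p6), which held all 5 genes. Alternatives covered scaling, filter, tool, replicate block, label number, ribosomal RNA share and libraries left out.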

Additional observations from a re-analysis of the deposited data

Results flagged for a closer look

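Of 72 groups of 5 libraries scanned, 6 held a library whose gap to its nearest neighbour exceeded Dixon's 95% critical value, where chance alone gives about 1 in 20. None of these was a level of Sst, Gast, Iapp, Hhex or Pdx1. In p57KO 2, Gip stood far above the other p57KO libraries at 6481 CPM, Cck at 3624 CPM and Ramp3 at 9.36 CPM. In p57WT 1, Tac1 stood above the other p57WT libraries at 27.7 CPM and Vgf at 5.01 CPM. In p57WT 5, Rfx6 stood above the other p57WT libraries at 16.2 CPM.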

How the results depend on the processing

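Sst, Gast, Iapp and Hhex were higher in p57KO in all 21 alternatives, which the choice of genes and the filter fix and which is no sign of stability. Leaving out single libraries gave log2 fold changes of 11.03 to 11.67 for Sst, 6.84 to 7.79 for Gast, 6.22 to 7.46 for Iapp, 4.62 to 5.18 for Hhex and 0.79 to 1.78 for Pdx1, of which Pdx1 passed without p57KO 3. Sst was at 10.67 with the label number as a term and within 607, and at 10.09 when scaled to epithelial markers. Gast was at 6.67 with limma-voom, at 6.67 without p57KO 1 and p57KO 2, and at 5.97 when scaled to epithelial markers. Pdx1 turned to -0.39 without p57KO 1 and p57KO 2 and to -0.11 under epithelial scaling. The number of genes called was 6107, and 1009 with the label number as a term and within 607, 11268 under epithelial scaling, 2959 with the class of ribosomal RNA share, 1642 without p57KO 2 to 4 (fewer samples), and 4763 to 7141 without single libraries. For 607 over 608 in p57KO, 1116 genes were called, 2272 with DESeq2, and 348 to 1393 without single libraries. There, without single libraries, Sst ranged from -0.86 to 0.40 (turning sign at 0.40 without p57KO 1 and 0.03 without p57KO 5), Iapp from -3.28 to 0.30 (turning without p57KO 1) and Hhex from -0.24 (turning without p57KO 2) to 1.11, none of them passing. The cause of these shifts was not tested. Deviations of same-numbered libraries correlated at -0.134 to 0.204, and those of the other pairs at -0.388 to 0.466. These values cannot settle whether the replicate numbers pair libraries, and the labels do not say so. With the replicate block 5804 genes were called, Hhex was at 4.92 and Pdx1 at 0.84 (edgeR adjusted p = 0.380). At these depths, p57WT levels of Sst, Gast and Hhex lie at or under the floor, so their fold changes rest on at most 3 counts per library.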
